A study of Homo sapiens with 11 samples.

Results

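Of the 5435 regions in 5 deposited CUT&RUN peak lists, 249 had their summit within 1000 bp of an end of 2 or more protein-coding genes, and these regions at closely paired gene ends are described here. They were chosen by position alone: the summit, which is the highest point of a region, was set against both ends of the span of every RefSeq protein-coding gene on hg38, on chromosomes 1 to 18, 20 to 22 and X without the short arms of the acrocentric chromosomes. Of the 4107 regions in that part of the genome, 137 of 1735 in the edit_myc_FLAG list were members (7.9%), as were 52 of 942 in myc_FLAG (5.52%), 55 of 1003 in endog_myc (5.48%), 4 of 212 in the rabbit IgG list (1.89%) and 1 of 215 in the mouse IgG list (0.465%). The rule fixed these shares, and they are given as the size of the set. After merging overlapping members of the 3 target lists (edit_myc_FLAG, myc_FLAG and endog_myc), there were 175 loci with 348 genes.

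The study profiled myc by CUT&RUN in HEK293T, an established human embryonic kidney cell line. In CUT&RUN, an antibody brings a nuclease to the protein it recognises in permeabilised cells, and the DNA cut loose around that protein is sequenced. There were 11 libraries: 3 labelled edit_myc_FLAG, 3 myc_FLAG, 3 endog_myc, and 1 each for mouse IgG (ms_IgG) and rabbit IgG (rbt_IgG), which measure background. The antibodies named in the labels are a mouse antibody to FLAG, a rabbit antibody to myc and the mouse and rabbit IgG; which library received which is given by the library names only. What "edit" means, how the FLAG-tagged myc came to be in the cells, and whether the cells of the endog_myc libraries carry it were details not given in the sources used here. Each target list holds 1 set of regions for its 3 libraries, so no value below has a spread over replicates, and read depth is unknown. All intervals are 95% intervals that cover counting error only, and regions, pairs and genes that lie near each other are not independent.

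Genes whose starts lie close together on opposite strands are said to stand head to head, and the DNA between them serves as a bidirectional promoter from which transcription runs both ways. Such pairs are common in the human genome and often hold genes needed in every cell, such as those for DNA repair and mitochondrial function, and they usually lie in CpG islands. MYC contacts DNA together with its partner MAX, and its preferred sequence is the E-box CACGTG, although much of its binding is seen at active promoters without one. CCAAT boxes, bound by the trimeric factor NF-Y, are a common element of promoters, among them bidirectional ones.

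Promoter stretches from 7 of the loci are printed to show what the DNA under these summits looks like, chosen after their values were seen. ORMDL2, MYL11 and RBM15 are from loci in all 3 target lists, SON from one in myc_FLAG alone and H2BC26 from one in endog_myc alone. ORC6 is from the locus with the highest fold, which rabbit IgG shares. ZNF664 is printed as a stretch with no CCAAT box. All are plus-strand sequence of RefSeq GRCh38.p14, 5′ to 3′, up to 250 bases before the start of the named gene and ending at the base before it. Where the start of the minus-strand partner lies nearer, the stretch begins just past it. Capitals mark CCAAT, its reverse complement ATTGG, and the E-box CACGTG.
ORMDL2 (chr12:55817791-55818040, opposite SARNP): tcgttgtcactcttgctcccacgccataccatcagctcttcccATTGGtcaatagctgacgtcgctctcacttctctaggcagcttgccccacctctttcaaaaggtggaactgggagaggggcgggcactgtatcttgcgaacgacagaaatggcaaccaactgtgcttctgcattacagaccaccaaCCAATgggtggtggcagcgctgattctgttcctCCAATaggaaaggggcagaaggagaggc
MYL11 (chr16:30370684-30370933, opposite TBC1D10B): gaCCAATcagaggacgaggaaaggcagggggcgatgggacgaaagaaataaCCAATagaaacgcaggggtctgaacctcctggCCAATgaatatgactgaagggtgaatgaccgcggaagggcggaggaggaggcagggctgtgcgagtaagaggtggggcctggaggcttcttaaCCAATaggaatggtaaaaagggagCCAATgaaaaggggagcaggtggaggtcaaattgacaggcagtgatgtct
RBM15 (chr1:110339127-110339376, near LOC124904276): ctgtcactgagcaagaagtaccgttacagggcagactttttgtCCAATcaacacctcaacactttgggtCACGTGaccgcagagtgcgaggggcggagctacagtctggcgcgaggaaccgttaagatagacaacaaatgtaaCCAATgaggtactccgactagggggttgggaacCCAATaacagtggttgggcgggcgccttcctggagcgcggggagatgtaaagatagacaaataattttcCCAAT
SON (chr21:33542893-33543037, all bases between the starts of GART and SON): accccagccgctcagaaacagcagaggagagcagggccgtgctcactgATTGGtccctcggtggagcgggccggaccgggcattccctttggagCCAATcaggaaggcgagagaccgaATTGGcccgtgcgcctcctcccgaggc
H2BC26 (chr1:228457874-228458102, all bases between the starts of H2AC25 and H2BC26): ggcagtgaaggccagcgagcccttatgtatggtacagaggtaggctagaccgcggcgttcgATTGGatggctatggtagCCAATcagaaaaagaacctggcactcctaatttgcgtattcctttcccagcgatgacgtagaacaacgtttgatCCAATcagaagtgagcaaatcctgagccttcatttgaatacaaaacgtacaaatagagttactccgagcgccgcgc
ORC6 (chr16:46689409-46689658, opposite VPS35): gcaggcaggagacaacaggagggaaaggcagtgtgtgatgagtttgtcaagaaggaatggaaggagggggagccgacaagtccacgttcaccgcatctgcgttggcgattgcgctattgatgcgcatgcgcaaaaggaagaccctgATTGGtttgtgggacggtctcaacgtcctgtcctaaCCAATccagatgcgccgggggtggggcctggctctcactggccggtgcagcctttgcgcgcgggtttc
ZNF664 (chr12:123972965-123973214, opposite CCDC92): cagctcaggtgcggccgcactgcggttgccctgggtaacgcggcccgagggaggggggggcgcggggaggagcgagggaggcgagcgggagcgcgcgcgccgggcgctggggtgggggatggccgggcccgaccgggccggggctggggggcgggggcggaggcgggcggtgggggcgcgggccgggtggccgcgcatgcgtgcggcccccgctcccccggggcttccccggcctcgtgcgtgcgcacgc

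CCAAT was found on one strand or the other 3 times in the ORMDL2 stretch, 5 times in that of MYL11, 4 times in that of RBM15, 3 times each in those of SON and H2BC26, and 2 times in that of ORC6. The E-box CACGTG occurred in the RBM15 stretch alone, 1 time. In the ORMDL2 stretch, all 3 summits fell close to the first ATTGG, at base 43 for edit_myc_FLAG, base 54 for myc_FLAG and base 71 for endog_myc. Summits in the MYL11 stretch lay farther apart, at bases 241, 99 and 151 in the same order. The ZNF664 stretch, 84.4% G and C, held a summit of edit_myc_FLAG at base 77 and no CCAAT, and it had 3 matches to the GC box GGGCGG on either strand.

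Paired gene ends held more of the regions than their share of the bases. Within 1000 bp of any gene end lay 67.3 Mb, of which 5.41 Mb (8.04%) were that near to ends of 2 or more genes. In edit_myc_FLAG, 137 of the 601 regions at gene ends were at paired ends (22.8%, Wilson interval 19.6 to 26.3), in myc_FLAG 52 of 194 (26.8%, 21.1 to 33.4) and in endog_myc 55 of 226 (24.3%, 19.2 to 30.3). All 3 intervals lay above the share of bases and overlapped one another. Few IgG regions were at gene ends at all: 4 of 11 such regions in rabbit IgG were at paired ends (36.4%, 15.2 to 64.6), and 1 of 3 in mouse IgG (33.3%, 6.15 to 79.2). The rabbit IgG interval, from few regions, also lay above the share of bases, and the mouse IgG interval included it. A share above that of the bases was thus not particular to the target lists.

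Head-to-head starts made up most of the members, and regions where 2 genes end tail to tail were not seen. Strand came from the RefSeq promoter table, which gave it for 14593 of 18472 genes in scope and for 307 of the 348 genes at members, so the orientation was not given for 23 edit_myc_FLAG, 12 myc_FLAG and 12 endog_myc members. Of those with an orientation, 92 of 114 in edit_myc_FLAG were head to head (80.7%, 72.5 to 86.9), 32 of 40 for myc_FLAG (80.0%, 65.2 to 89.5) and 36 of 43 for endog_myc (83.7%, 70.0 to 91.9), against 44.7% of the paired bases with an orientation. The start of one gene at the end of another (head to tail) was seen at 16, 5 and 4 members, and 2 starts on the same strand at 6, 3 and 3. Tail-to-tail bases covered 1.18 Mb and held 0 regions of each target list, which allows up to 2.53 regions per Mb by 3 counts, or 3.11 by the exact Poisson interval. Where a gene with no close neighbour ends, there were 0.402 regions per Mb in edit_myc_FLAG, 0.0803 in myc_FLAG and 0 in endog_myc. These values lie below both limits, so a scarcity of regions was not particular to tail-to-tail pairs. All 5 IgG members were head to head.

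**Figure D1:**
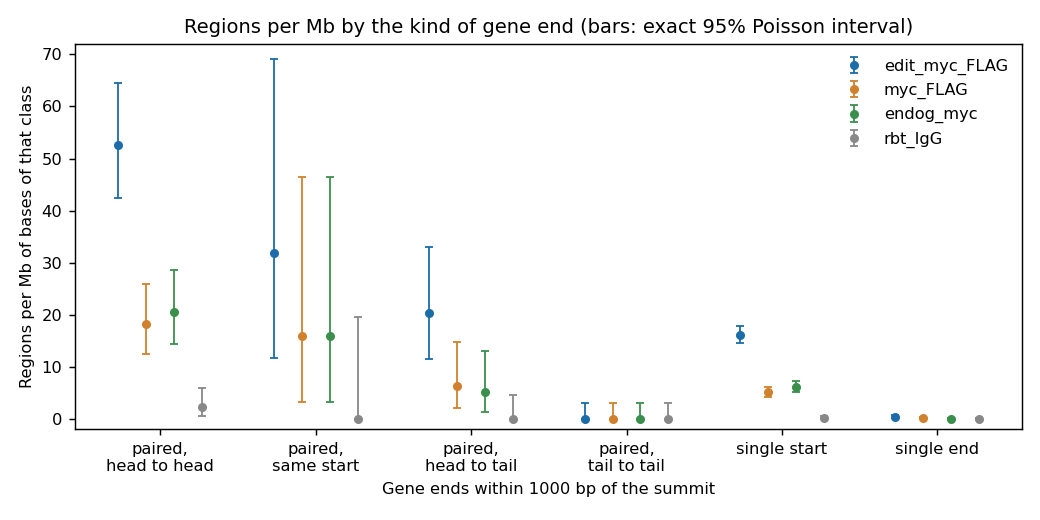
Regions per Mb (y axis) for each kind of gene end within 1000 bp of the summit (x axis), for the 3 target lists and rabbit IgG; points are the counts over the bases of that kind and bars the exact 95% Poisson intervals. Head-to-head starts carry 52.6 regions per Mb in edit_myc_FLAG against 16.1 at single starts, and tail-to-tail ends carry 0 in every list shown.

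Per base, the density of regions was higher at head-to-head starts than at the start of a gene with no close neighbour. In edit_myc_FLAG there were 52.6 regions per Mb of head-to-head bases (exact Poisson interval 42.4 to 64.5) and 16.1 at single starts (14.5 to 17.8), a ratio of 3.27 (exact interval 2.57 to 4.11). In myc_FLAG the densities were 18.3 and 5.07 (ratio 3.61, 2.36 to 5.37), and in endog_myc 20.6 and 6.21 (ratio 3.31, 2.23 to 4.80). The densities themselves differ between lists with their lengths, whereas the 3 ratios have overlapping intervals. Of head-to-head bases, 0.731 of 1.75 Mb lay within 250 bp of the nearest start, against 5.81 of 23.7 Mb of single-start bases. The ratio was therefore also taken within that distance, an alternative added after seeing the data. There it was 2.32 in edit_myc_FLAG (1.79 to 2.99), 2.46 in myc_FLAG (1.52 to 3.86) and 2.34 in endog_myc (1.50 to 3.55). Every head-to-head base lies within 1000 bp of 2 or more starts, and every single-start base of 1. The ratios are per base and were not corrected for this, and the 3 intervals within 250 bp include 2. Whether a start in a pair held more regions than a single start was not tested. Rabbit IgG had 2.29 regions per Mb at head-to-head starts (0.623 to 5.86) and 0.211 at single starts (0.0686 to 0.493), from 4 and 5 regions. Those intervals do not overlap, so the higher density at head-to-head starts was also seen in this background list and is not particular to the target lists.

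Among single gene ends with strand given, the region was at the start of the gene for 381 of 391 regions in edit_myc_FLAG (97.4%), 120 of 122 in myc_FLAG (98.4%) and all 147 in endog_myc, where starts made up 48.7% of the bases. Genes with a neighbour's end within 2000 bp had a region at an end more often than genes without one, with intervals that do not overlap: 5.86% of 6521 genes against 2.98% of 11951 in edit_myc_FLAG (all genes 4.0%), 2.12% against 0.904% in myc_FLAG (all genes 1.33%) and 2.38% against 1.06% in endog_myc (all genes 1.53%). In that count 1 region at a pair counts for each of its genes. A long non-coding RNA end lay within 1000 bp of the summit at 13 of 137 paired-end members of edit_myc_FLAG (9.49%), 8 of 52 of myc_FLAG (15.4%) and 7 of 55 of endog_myc (12.7%), against 25.9%, 31.7% and 31.0% of single-end regions. The share of bases near such an end was not set beside these values, and why they differ was not tested.

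By the rule, every member's summit lay within 1000 bp of the ends of its paired genes, whatever their orientation. The distances to these gene ends describe the set within that limit and were not compared with a baseline. The median distance from a member's summit to the nearest gene end was 140, 136.5 and 118 bp (here and below in the order edit_myc_FLAG, myc_FLAG, endog_myc), and to the next gene's end 286, 277 and 294 bp. Both ends were within 500 bp of the summit for 106 (77.4%), 43 (82.7%) and 46 (83.6%) of the members. At head-to-head pairs with a gap between the starts, the summit lay inside the gap for 40 of 74 members in edit_myc_FLAG (54.1%, 42.8 to 64.9), 15 of 25 for myc_FLAG (60.0%, 40.7 to 76.6), 20 of 34 for endog_myc (58.8%, 42.2 to 73.6). The gaps made up 17.1%, 15.5% and 18.2% of the bases in which the summits of these pairs could lie, below each interval. That share counts every base within 1000 bp of both starts alike, although summits lie near starts in general. At single starts, 274 of 381 edit_myc_FLAG regions lay within 250 bp of the start. Whether the gap was preferred beyond nearness to a start was not tested. The median distance from the midpoint of the gap was 79.5, 64.5 and 108.5 bp. Summits outside the gap were inside the plus-strand gene for 15, 6 and 5 members and inside the minus-strand gene for 19, 4 and 9.

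**Figure D2:**
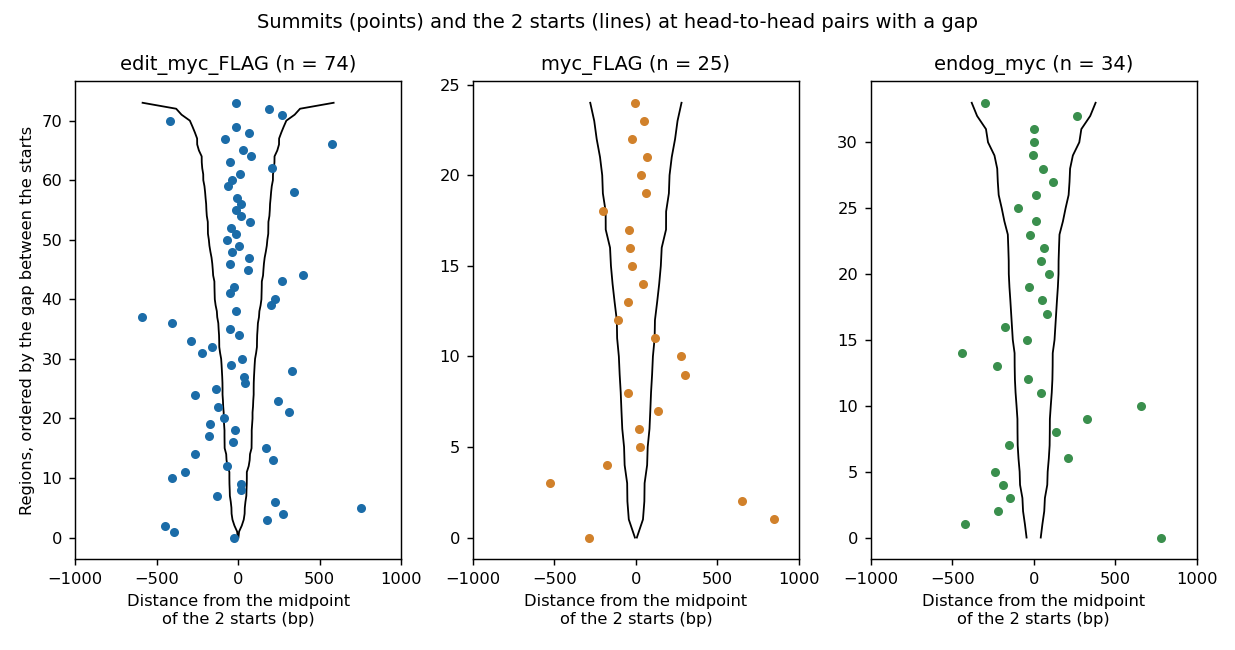
Position of each summit (points) from the midpoint between the 2 starts, in bp (x axis), at head-to-head pairs whose starts do not overlap, ordered from the smallest gap at the bottom to the widest at the top (y axis); the 2 black lines are the starts. Points crowd around the midpoint between the lines in all 3 lists, with a median distance of 79.5, 64.5 and 108.5 bp.

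As a share of pairs, those with starts 251 to 500 bp apart had a region most often in each target list, and the shares at 501 to 1000 bp had overlapping intervals. The annotation held 1116 head-to-head pairs of starts, of which 94 had an edit_myc_FLAG region (8.42%), 32 a myc_FLAG region (2.87%), 36 an endog_myc region (3.23%), 4 a rabbit IgG and 1 a mouse IgG region. In edit_myc_FLAG the share was 3.57% (1.74 to 7.19) at 196 pairs with a gap of 0 to 100 bp, 8.85% (6.27 to 12.4) at 339 pairs with 101 to 250 bp and 18.6% (13.4 to 25.1) at 167 pairs with 251 to 500 bp. The intervals of the narrowest and of the 251 to 500 bp gaps did not overlap, and at 52 pairs with 501 to 1000 bp the share was 13.5% (6.68 to 25.3). In endog_myc the same 3 shares were 0.510% (0.0901 to 2.83), 4.13% (2.48 to 6.81) and 8.98% (5.52 to 14.3). In myc_FLAG they were 1.02% (0.280 to 3.64), 3.24% (1.82 to 5.72) and 5.99% (3.28 to 10.7), the first and last overlapping slightly. Pairs whose starts overlap had a region in 5.68%, 2.21% and 0.631% of 317 cases. Wider gaps leave fewer bases within 1000 bp of both starts: per Mb of such bases, edit_myc_FLAG pairs with a region numbered 18.4 at 0 to 100 bp, 48.3 at 101 to 250 bp, 112 at 251 to 500 bp and 103 at 501 to 1000 bp. The last 2 values were 36.1 and 29.5 in myc_FLAG, from 10 and 2 pairs, and 54.2 and 59.1 in endog_myc, from 15 and 4 pairs. These values per Mb have no interval, and their order at the 2 widths rests on few pairs. The median gap of the members' pairs was 249.5, 234 and 271 bp for the 3 target lists, against 180 bp over all 799 pairs with a gap.

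**Figure D3:**
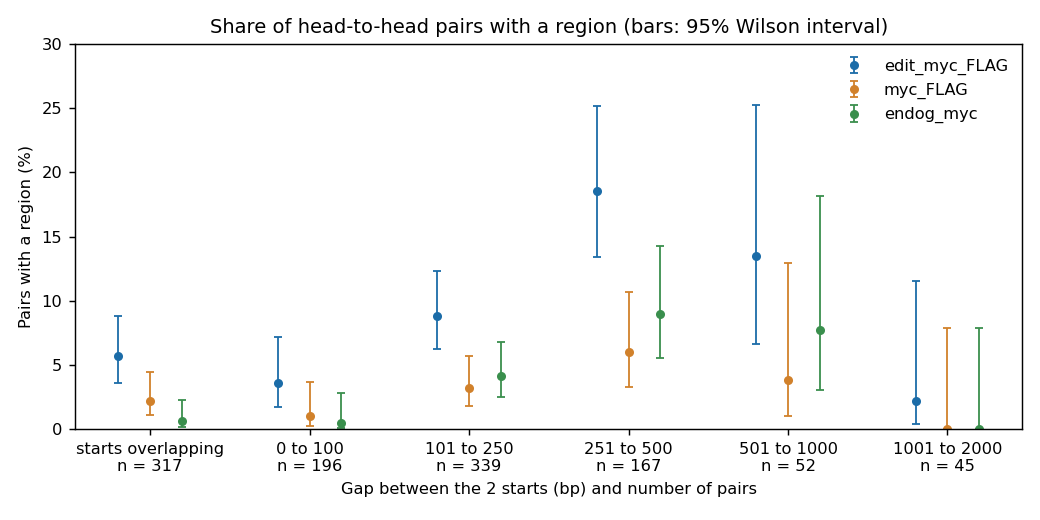
Share of head-to-head pairs with a region (y axis, percent) by the gap between the 2 starts in bp (x axis, with the number of pairs), for the 3 target lists; bars are 95% Wilson intervals. The share is highest at gaps of 251 to 500 bp in every target list, at 18.6% in edit_myc_FLAG, 5.99% in myc_FLAG and 8.98% in endog_myc.

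Folds of members were within the range of other regions. The authors' fold enrichment, a value of each single region from their peak caller, had a median of 5.48 in edit_myc_FLAG members (range 3.81 to 12.2), 5.46 in myc_FLAG (3.87 to 10.6) and 5.79 in endog_myc (3.96 to 13.7). At single gene ends the medians were 5.43, 5.62 and 5.59, and over all regions in scope 5.36, 5.45 and 5.43. A −log10 q of 5 or more was reached by 43 edit_myc_FLAG members (31.4%, all regions 45.0%), 21 of myc_FLAG (40.4%, all 66.3%) and 26 of endog_myc (47.3%, all 64.4%). Single-end regions reached it at 30.4%, 43.0% and 45.0% in the same order, near the shares of the members. The member with the highest fold, at VPS35 and ORC6 in every target list, ranked 72 of 1735, 99 of 942 and 50 of 1003 by fold, and no other member was among the highest 100 of its list.

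Members recurred in another target list at shares that did not differ from those of single-end regions beyond counting error. In edit_myc_FLAG, the longest list, 47 of 137 members overlapped a region of another target list by at least 1 bp (34.3%, 26.9 to 42.6), against 29.5% of single-end regions and 42.1% of all. In myc_FLAG 39 of 52 did (75.0%, 61.8 to 84.8), against 72.5% and 73.6%, and in endog_myc 37 of 55 (67.3%, 54.1 to 78.2), against 66.7% and 70.9%. The differences from single-end regions were 4.78, 2.46 and 0.606 percentage points, each with a Newcombe interval that includes 0 (-3.80 to 14.0, -12.3 to 15.0 and -14.1 to 13.8). Pair by pair, edit_myc_FLAG members overlapped myc_FLAG in 33 cases (24.1%, all regions 33.8%) and endog_myc in 33 (24.1%, all 35.2%). Of myc_FLAG members, 34 overlapped edit_myc_FLAG (65.4%, all 61.6%) and 23 endog_myc (44.2%, all 60.8%), and of endog_myc members 32 overlapped edit_myc_FLAG (58.2%, all 59.5%) and 23 myc_FLAG (41.8%, all 56.6%). Members that overlapped another target list had a median fold of 6.01 in edit_myc_FLAG, where the rest had 5.17; the pairs of medians were 5.93 and 5.11 for myc_FLAG, 5.83 and 5.75 for endog_myc.

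IgG regions were rare at these loci. Rabbit IgG overlapped 4 of 137 edit_myc_FLAG members (2.92%, all regions 11.2%, and 14.2% with either IgG), 3 of 52 of myc_FLAG (5.77%, all 20.5%) and 4 of 55 of endog_myc (7.27%, all 19.1%). Single-end regions overlapped it at 1.08%, 2.82% and 1.75%. The difference from single ends was 5.52 percentage points in endog_myc (Newcombe interval 0.0260 to 15.6), resting on 4 and 3 regions, and the intervals in the other lists included 0. Mouse IgG overlapped 0 members of each target list, which allows up to 2.19% in edit_myc_FLAG (all regions 10.5%), 5.77% in myc_FLAG (all 20.2%) and 5.45% in endog_myc (all 18.8%).

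**Figure D4:**
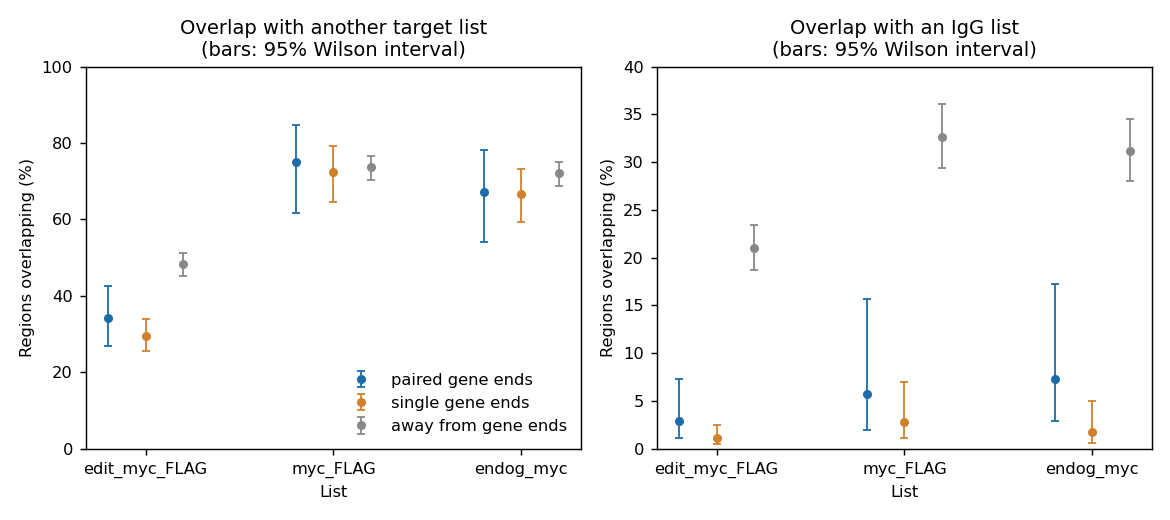
Share of regions in each target list (x axis) that overlap another target list (left, y axis in percent) or an IgG list (right, y axis in percent), for regions at paired gene ends, at single gene ends and away from gene ends; bars are 95% Wilson intervals. On the left the intervals of paired-end and single-end regions overlap in each list, and on the right paired-end members of edit_myc_FLAG stand at 2.92% against 21.0% away from gene ends.

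The 4 loci shared with rabbit IgG were head-to-head pairs and included the one with the highest fold of all. VPS35, a subunit of the retromer that sorts endosomal cargo, and ORC6, a subunit of the origin recognition complex, share a promoter at chr16:46689259-46689579 with a fold of 12.2 for edit_myc_FLAG, 10.6 for myc_FLAG, 13.7 for endog_myc, and 5.86 in rabbit IgG. Its summits lay 29.5, -21.5 and -2.5 bp from the midpoint of the starts in these lists, negative values being on the side of VPS35. FBXO24, an F-box protein, and LRCH4 (chr7:100586113-100586655) stood at 9.82, 8.81 and 9.42, and 5.16 in rabbit IgG. ACTR1A, a dynactin subunit, and SUFU, a negative regulator of Hedgehog signalling (chr10:102502126-102502611), had 6.31, 7.74 and 4.28, and 4.52 in rabbit IgG, above the endog_myc value. At ITSN1, an endocytic scaffold, and CRYZL1 (chr21:33641816-33642463) the folds were 5.49 in edit_myc_FLAG, 4.25 in endog_myc and 5.47 in rabbit IgG, and myc_FLAG had no region. The part of antibody-independent signal in these 4 loci was not tested. The mouse IgG member lay at the histone genes H2BC4 and H2AC6 with a fold of 7.69 and overlapped no target region.

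Of the 175 loci, 121 had a region in 1 target list, 34 in 2 and 20 in all 3. Of the 121, 90 were of edit_myc_FLAG, 18 of endog_myc and 13 of myc_FLAG. Of the 20 in all 3 lists, 17 had no IgG overlap; in 15 of these the region was a member in every list, and 6 of the 15 were head to head. The folds at the 20 loci ran from 3.81 to 13.7.

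**Figure D5:**
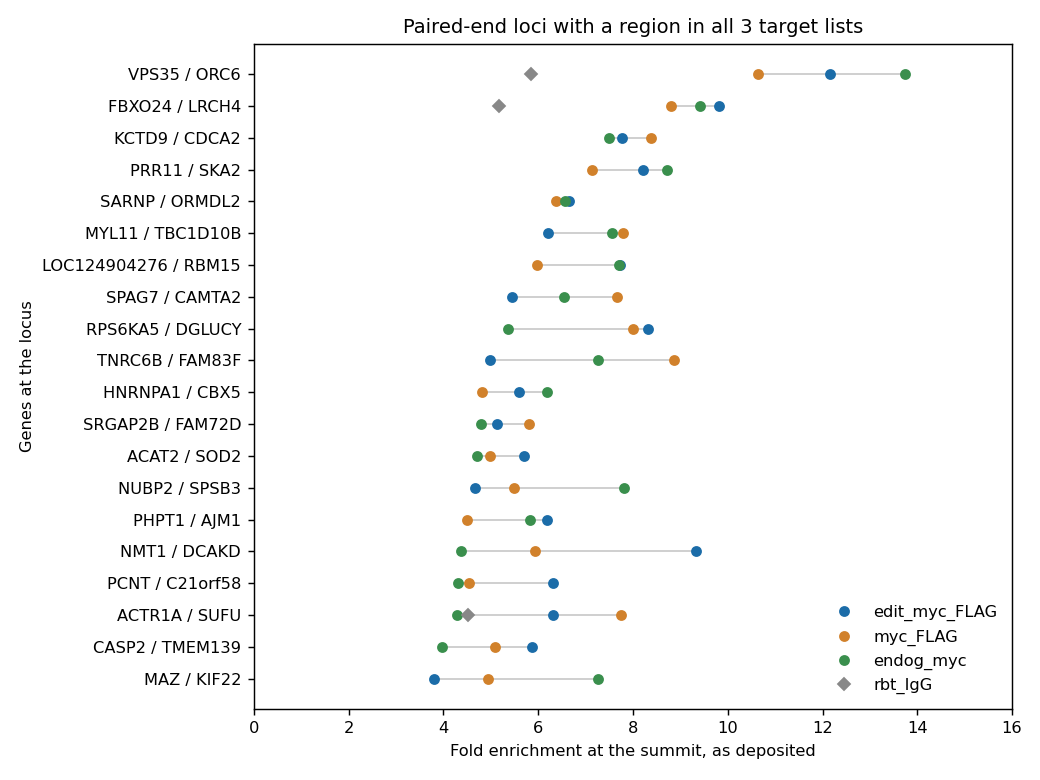
Fold enrichment at the summit as deposited (x axis) for the 20 paired-end loci with a region in all 3 target lists (y axis, gene names), ordered by the lowest of the 3 folds; circles are the target lists, diamonds rabbit IgG and grey lines the range. Each point is 1 region of 1 merged list, so it has no error bar. VPS35 and ORC6 lead with 10.6 to 13.7, and no list is highest at all loci.

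PRR11 and SKA2 are both genes of cell division, SKA2 as part of the complex that ties kinetochores to the spindle. Their shared promoter (chr17:59155163-59155651) stood at folds of 8.21, 7.13 and 8.72 (edit_myc_FLAG, then myc_FLAG, then endog_myc, as in the values that follow), and its 3 summits lay -14, -7 and 5 bp from the midpoint of a gap of 560 bp. This was among the even loci, where the lists differ little. SARNP, an mRNA export factor, and ORMDL2, a regulator of sphingolipid synthesis (chr12:55817761-55818237), had 6.64, 6.39 and 6.57, the closest 3 values of the loci named here. MYL11, a myosin light chain of fast skeletal muscle, and TBC1D10B, a GTPase-activating protein for Rab proteins (chr16:30370471-30371099), had 6.21, 7.79 and 7.56. The stretches printed above for ORMDL2 and MYL11 come from these loci.

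Other loci were uneven between the lists. NMT1, which attaches myristate to proteins, and DCAKD (chr17:45061161-45061579) had 9.32, 5.93 and 4.38. RPS6KA5, the kinase MSK1, and DGLUCY, a D-glutamate cyclase (chr14:91060640-91061101), had 8.33, 7.99 and 5.37. NUBP2, a factor of cytosolic iron-sulfur cluster assembly, and SPSB3 (chr16:1782564-1783039) ran the other way, with 4.67, 5.50 and 7.82. As the fold depends on the depth and the control of each list, the values show that no list was highest throughout, and they were not tested between lists.

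Orientation was not given or not head to head at the other loci named by the rule. RBM15, an RNA-binding subunit of the mRNA methylation complex, with LOC124904276 (chr1:110338874-110339421) had 7.73, 5.97 and 7.70. SPAG7 and CAMTA2, a transcriptional activator (chr17:4967294-4967793, head to tail), had 5.44, 7.66 and 6.54. HNRNPA1, an abundant splicing regulator, and CBX5, which encodes heterochromatin protein HP1 alpha (chr12:54279892-54280676), had 5.59, 4.81 and 6.18. PHPT1, a phosphohistidine phosphatase, and AJM1 (chr9:136849038-136849617) had 6.18, 4.50 and 5.83. ACAT2, a cytosolic thiolase, and SOD2, the mitochondrial superoxide dismutase (chr6:159761876-159762463), had 5.69, 4.98 and 4.72. KCTD9 and CDCA2, a regulator of protein phosphatase 1 in mitosis, had 7.76, 8.39 and 7.50 at a shared locus.

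Some loci of 1 target list had folds as high as the shared ones. In edit_myc_FLAG alone, ABHD17B, a protein depalmitoylase, with C9orf85 had a fold of 9.85, LSM1, an mRNA decay factor, with the chaperone partner BAG4 8.74, and PRKAG1, a subunit of AMP-activated kinase, with the histone methyltransferase gene KMT2D 7.03. The 3-gene locus of ZNF664, its read-through ZNF664-RFLNA and CCDC92 had 7.09, and ANKRD16 with the helicase gene FBH1 6.98. In endog_myc alone, ZSWIM3 with the peroxisomal thioesterase gene ACOT8 had 8.14, and RAB5B, an early endosome GTPase, with CDK2, the kinase of the G1 to S transition, 7.22. Further endog_myc loci were H2AC25 with H2BC26, both histones, at 6.68, the histone chaperone gene RBBP4 with ZBTB8OS at 6.51, and RETREG3 with the gamma-tubulin gene TUBG1 at 6.26. In myc_FLAG alone, the splicing cofactor SON with GART, an enzyme of purine synthesis, had 6.54, MIER1 with DNAI4 5.85, and MMAB with the mevalonate kinase gene MVK 5.78. CHP1 with EXD1 followed at 5.43 and GGNBP2 with MYO19, a mitochondrial myosin, at 5.40. A locus in 1 list means that no region of another target list overlapped it: at 4 of the 121, a gene of the pair had a separate member of another list, among them H2AC25 and H2BC26, where myc_FLAG had its own region with a fold of 3.87.

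At 5 loci, summits lay near ends of 3 genes: 4 edit_myc_FLAG members and 1 endog_myc member. Besides ZNF664, these were STX5, TEX54 and WDR74, where edit_myc_FLAG had 5.78 (and an overlapping myc_FLAG region near STX5 and TEX54 had 4.13), BRCC3, CMC4 and MTCP1 at 4.96 in edit_myc_FLAG, LOC124900388, LOC728392 and NLRP1 at 4.73 in edit_myc_FLAG, and LOC124903762, TAOK2 and TMEM219 at 4.43 in endog_myc. Close to the limit of the rule, TNRC6B and FAM83F counted in myc_FLAG, with the second gene's end 955 bp from the summit (fold 8.87), and not in endog_myc, with 1007 bp (fold 7.27), although the regions overlap. RAB5B and CDK2 lay just inside in endog_myc at 974 bp, and NHEJ1 and SLC23A3 in edit_myc_FLAG at 961 bp (fold 5.16). Just outside were ELK1 and UXT in myc_FLAG at 1009 bp (fold 5.07) and FAM186B and PRPF40B in edit_myc_FLAG at 1036 bp (fold 4.93).

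By function, the genes at members of any target list were described with 11 lists, and over all genes in scope 348 of 18472 were at a member (1.88%): 277 in edit_myc_FLAG (1.5%), 104 in myc_FLAG (0.563%) and 111 in endog_myc (0.601%). A gene can only be at a member if a neighbour's end lies within 2000 bp, which holds for 6521 genes, of which the 348 are 5.34%. Of the DNA repair list, 8 of 63 genes were at a member (12.7%; 19.5% of the 41 with a neighbouring end), 6 in edit_myc_FLAG, 3 in endog_myc and 0 in myc_FLAG. Among them were XRCC3, a gene of homologous recombination, at 5.80 in edit_myc_FLAG and 5.43 in endog_myc, the DNA glycosylase genes MBD4 at 6.03 and TDG at 5.79, BRCA1 at 4.52 and the helicase gene WRN at 4.51 in edit_myc_FLAG, and the checkpoint kinase genes CHEK2 at 5.48 and ATM at 4.72 in endog_myc. Of the genes named, XRCC3 was in more than 1 list.

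Of the cell cycle list, 4 of 54 genes were at a member (7.41%): CDK2, ORC6, CKS1B, a small subunit of cyclin-dependent kinase complexes, at 5.79 in endog_myc, and LIN52, of the DREAM complex, at 6.48 in edit_myc_FLAG. Of the oxidative phosphorylation list, 4 of 62 were (6.45%): NDUFV3 and NDUFB3 of complex I, SDHA of complex II and UQCRQ of complex III. NDUFV3 had 6.45 in edit_myc_FLAG and was also in endog_myc, and SDHA 6.33 in edit_myc_FLAG and 6.25 in myc_FLAG. Of the splicing and mRNA processing list, 4 of 65 were (6.15%): HNRNPA1, SON, ALYREF and NUDT21. Among tRNA synthetases, 3 of 35 were (8.57%): AARS1 at 7.01 in edit_myc_FLAG and 7.90 in myc_FLAG, with CARS2 at 6.58 and EARS2 at 4.95 in edit_myc_FLAG. Of the genes with a neighbouring end, the shares were 16.7% of 18 tRNA synthetases and 16.0% of 25 cell cycle genes. They were 11.4% of 35 for splicing and mRNA processing and 11.1% of 36 for oxidative phosphorylation.

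Ribosome biogenesis, a process that MYC is known to raise, had 3 of 63 genes at a member (4.76%): UTP18 at 6.31 and NOP2 at 4.85 in edit_myc_FLAG, and WDR74 at the 3-gene locus above. The mitochondrial ribosome had 1 of 70 (MRPL18), the chaperones 1 of 28 (TCP1, which shares its promoter with MRPL18, at 4.61 in endog_myc) and nucleotide and folate synthesis 1 of 37 (GART). Of the genes with a neighbouring end, these were 7.89% of 38 for ribosome biogenesis and 2.17% of 46 for the mitochondrial ribosome. For chaperones the share was 5.26% of 19, and for nucleotide and folate synthesis 6.67% of 15. None of 13 genes of the MAX network, MYC's dimer partner and its relatives, and none of 44 liver, muscle and neuronal control genes were at a member, which allows up to 23.1% and 6.82%. Few genes of these sets could have been: 2 and 6 have a neighbouring end. In total 29 list genes were at a member, 20 in edit_myc_FLAG, 8 in myc_FLAG, 11 in endog_myc and 2 (HNRNPA1 and ORC6) in all 3, so the counts per list are small.

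The 7 motifs were searched on both strands in RefSeq promoter windows, from 250 bases before to 50 after each start. Windows holding the summit of a member of any target list numbered 194, for 149 of the 244 target members. The CCAAT box was in 150 of them (77.3%, 70.9 to 82.6), against 34.4% of all 20562 windows and 36.1% of 2990 windows of head-to-head genes without a target summit. Under single-end summits it was in 240 of 323 windows (74.3%, 69.3 to 78.8), and the 2 intervals overlap. With 1 window for each region, CCAAT was under 56 of 79 edit_myc_FLAG members (70.9%), 30 of 37 of myc_FLAG (81.1%) and 29 of 33 of endog_myc (87.9%). Single-end regions had it at 72.3%, 87.3% and 89.9% in the same order. The 5 members with a window that overlapped IgG all had it. CCAAT occurred 2 or more times under 84 of 149 members (56.4%), and the motif nearest to the summit was a median of 32 bp away. It lay within 50 bp for 73 of 115 members (63.5%), where 55.6% of the window bases were that near to a CCAAT. Members with it had a median fold of 5.71 and those without it 5.04. These traits were not particular to paired ends. Of 384 single-end regions with a window, 59.4% had CCAAT 2 or more times, and the nearest was a median of 30.5 bp from the summit. It lay within 50 bp for 71.1% of those with it, where 56.7% of the window bases were that near. Single-end regions with it had a median fold of 5.76 and those without it 5.25.

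The E-box CACGTG was in 27 of the 194 windows (13.9%, 9.74 to 19.5), against 8.39% of all windows and 9.60% of the head-to-head windows without a target summit, the latter just below the interval's lower bound. By region it was under 19 of 149 members (12.8%, 8.32 to 19.1), an interval that includes the head-to-head share, and under 9.90% of single-end regions. RBM15, PHPT1, the ribosome biogenesis gene UTP18 and the co-chaperone gene DNAJB9 were among the genes with one. The GC box GGGCGG was in 78.4% of member windows against 55.6% of all and 65.5% of the other head-to-head windows. The ETS motif CCGGAAG was in 19.6% against 12.4% and 22.3%, and the non-canonical E-box CACGCG in 18.6% against 14.1% and 17.4%. The NRF1 motif GCGCATGC was in 6.70% against 3.65% and 5.12%, and TCTCGCGA, a motif of housekeeping promoters, in 0.515% against 1.62% and 2.81%. Under single-end summits these motifs were in 85.4% of windows (GGGCGG), 13.0% (CCGGAAG), 22.9% (CACGCG), 8.67% (GCGCATGC) and 1.24% (TCTCGCGA). The GC box, CACGCG and the NRF1 motif were thus at least as frequent there as in member windows. Motifs can overlap: CACGCG and the NRF1 motif are both rich in CpG. The median G and C content was 65.5% in member windows, 68.0% under single-end summits, 62.3% in all windows and 63.7% in the other head-to-head windows. A match is a description of the letters, and binding by any factor was not measured by it.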

How the data were processed

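Regions came from 5 deposited peak lists, and the fold (a ratio of signal to background), the −log10 q and the summit offset in them were made by the authors' peak caller. According to the submitters' processing notes, the tools were MACS3 3.0.0b1, HOMER 4.10, SAMtools 1.15 and Bowtie2 2.4.5, on hg38. Options, control libraries and the merging of a group's 3 libraries were not given in the sources used here. Neither the deposited caller score nor the −log10 p was used. No read counts were used here, so depth is unknown.

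Gene spans came from RefSeq GRCh38.p14 and strand from its promoter windows. Python 3.11.15, pandas 2.3.3 and SciPy 1.17.1 were used. The set's positions were compared by counts, with Wilson, Newcombe and exact Poisson intervals at 95%, and a count of 0 allowed 3 counts. The geometry code was tested on simulated data. Overlap meant 1 shared bp or more.

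Named loci were the 12 in all 3 target lists without IgG overlap whose lowest fold was highest, the 5 of highest fold in each list alone, those overlapping IgG, those with most genes, and members of the 11 gene lists. Members, lists and rules were chosen with earlier results of these data known. One gene of the DNA repair list is not reported here by name.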

Additional observations from a re-analysis of the deposited data

How the results depend on the processing

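Of 157 values recomputed under other settings, 133 stayed within counting error of the main value and 24 moved outside it. Window: at 500 bp the edit_myc_FLAG share of gene-end regions at paired ends was 19.4%, and the share of genes at a member was 1.16% in edit_myc_FLAG and 0.498% in endog_myc; at 2000 bp the latter were 1.82% and 0.747%. With a −log10 q of at least 5, the other-target overlap of edit_myc_FLAG was 46.5%, IgG overlap 0 in all 3 lists, the median fold 6.64, 7.66 and 6.84 and the share of genes 0.471%, 0.227% and 0.282% (edit_myc_FLAG, myc_FLAG, endog_myc). With equal numbers of highest-fold regions, edit_myc_FLAG had 45.8%, 6.05 and 0.909% for overlap, fold and genes. With chromosome 19, myc_FLAG had 0.748% of genes. Requiring at least 50% of both regions to overlap gave 24.8%, 59.6% and 52.7%, and 0.730% IgG overlap in edit_myc_FLAG. Within 250 bp of a start, the edit_myc_FLAG density ratio was 2.32. Why the values moved was not tested, except that stricter settings hold fewer regions.

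No paired analysis was possible because each target list merges its 3 libraries, and for the same reason no replicate could be left out. Chromosome 19 is outside the rule. Strand is missing for part of the genes, chromosome 8 above all, so orientation counts are of those given. Longer lists can come from deeper libraries, and the depth was not analysed here. Mouse and rabbit IgG have 1 library each.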

Other observations

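All 512 motifs of 5 letters, each counted with its reverse complement, were compared between the 194 promoter windows holding a member's summit and the 2990 windows of head-to-head genes without a target summit. This ranking was made after the CCAAT counts were seen. CCAAT had the largest difference of the 512, at 77.3% against 36.1% (41.2 percentage points). Next were CAATC at 63.4% against 30.8% and GCCAA at 70.1% against 47.5%, both of which share letters with CCAAT in longer forms of the box. The windows of paired genes overlap each other, and the ranking has no test. It sets windows with a summit against windows without one. Windows under single-end summits had CCAAT at 74.3% (69.3 to 78.8), so its high share was not particular to paired ends. The other motifs of 5 letters were not counted there.

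Genes of 3 large families were counted at the members. Of 267 zinc finger genes named ZNF, 3 were at a member of a target list (ZNF664, its read-through ZNF664-RFLNA and ZNF597), and of 370 solute carrier genes 1 was (SLC23A3). Of 80 histone genes, many of which stand in head-to-head pairs, 2 were (H2AC25 and H2BC26). Genes named LOC were also counted, with 6 of 544 at a member. Over all genes in scope, 348 of 18472 were (1.88%). The only mouse IgG member was also at a histone pair, H2BC4 and H2AC6. The families were listed after seeing the gene names and were not tested.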
